A study of Mus musculus with 16 samples.

Results

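The genes described here are 38 genes that mark inhibitory interneurons or encode neuropeptides other than the opioids, together with receptors for those peptides. They were taken by name from a fixed list after the Ensembl identifiers of the count tables had been matched to mouse gene symbols. The 38 comprise 13 peptide precursors, 7 receptors, 8 transcription factors and 10 other identity genes, out of 55385 identifiers in the tables. All 38 were found, and 36 passed the filter on low counts that left 16899 genes for testing. Gal, the precursor of galanin, had 1 to 13 counts per library and Chodl, a marker of long-range projecting interneurons, had 0 to 8, so neither was tested.

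Hippocampal interneurons use GABA as their transmitter and fall into classes that arise in the medial or the caudal ganglionic eminence of the embryonic brain. Lhx6, Sox6 and Satb1 belong to the medial class, which includes the somatostatin and many of the neuropeptide Y cells. Adarb2 and Vip mark mostly caudal cells. Many interneurons also release a peptide made from a larger precursor, which is cut and trimmed in secretory granules and then acts on G protein-coupled receptors of nearby cells. Some members are also transcribed in excitatory neurons or glia: cholecystokinin (Cck), Cnr1, Sstr3 and Satb1 in pyramidal cells and Sox6 in oligodendrocyte precursors, for example.

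The data were RNA-seq libraries of dorsal hippocampus from mice injected there with a recombinant adeno-associated virus (rAAV). The virus expressed GFP (Control) or exogenous Dnmt3a2, a shorter isoform of the DNA methyltransferase Dnmt3a, which adds methyl groups to cytosine, mainly in CG dinucleotides. All mice were trained in contextual fear conditioning 3 weeks after the injection, in which a place is paired with a shock, and the dorsal hippocampus was collected 1 day or 5 days after training. The 4 groups (Control at 1 day, Control at 5 days, Dnmt3a2 at 1 day, Dnmt3a2 at 5 days) had 4 libraries each, 16 in all; no group was left untrained or uninjected. The sources used here do not give the promoter of the virus, the cell types transduced, or the strain, sex and age of the mice. Nothing in the labels says that the libraries of a group came from separate animals, so the p-values below measure the spread between these libraries, which may be technical.

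Each library held 28.6 to 30.0 M counts. Levels are given as CPM, the usual depth-scaled read count, on normalized library sizes. Dnmt3a, which checks the labels, was at 34.8 ± 0.797 CPM (SD, n = 4) in Control and 964 ± 238 CPM in Dnmt3a2 libraries at 1 day, and at 35.1 ± 2.15 and 1161 ± 111 CPM at 5 days, a rise of 27.7-fold (edgeR adjusted p = 2.19e-09) and 33.0-fold (edgeR adjusted p = 1.27e-09). General interneuron genes were present in every group: Gad1, which makes GABA, averaged 187 to 211 CPM, and Slc32a1, the vesicular GABA transporter, 74.9 to 81.8 CPM. Replicate 1 of Dnmt3a2 at 1 day and replicate 1 of Dnmt3a2 at 5 days stood apart by choroid plexus transcripts, with 773 and 1253 CPM of Ttr, the transthyretin gene of that epithelium, against 5.51 to 157 CPM in the other 14 libraries. These 2 libraries also held the least Dnmt3a of their groups: 623 CPM at 1 day (others 982 to 1153) and 1015 CPM at 5 days (others 1136 to 1249). For Cck, Sst, Npy, Adcyap1, Vip, Grp, Nts, Sstr2 and Sstr3, changes are given below also without these libraries. Both libraries were also among those richest in interferon response transcripts. Leaving them out removes high choroid content, low Dnmt3a and high interferon response transcripts together, and only from the Dnmt3a2 groups. These traits therefore cannot be told apart. In bulk tissue, fewer cells of a type and less RNA per cell cannot be told apart.

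RefSeq promoter windows (GRCm38.p6), each of the 250 bases before a start site, were matched for 32 of the 38 members. Because Dnmt3a2 acts on CG dinucleotides, the CG content of these windows is given as background, although methylation itself was not analysed here. The 49 member windows held 1 to 41 CG dinucleotides, with a median of 9, against a median of 6 over all 32851 windows. The cyclic AMP response element TGACGTCA is its own reverse complement, so a single search covers both strands. The element stood in the windows of Sst, Sstr2 and Cartpt, 3 of 49, and in 508 of all windows (1.55%). Below are the windows of Sst and Sstr2, a peptide and one of its receptors that both carry the element (in capitals), and those of Cck and Sstr3, the members nearest to the threshold in the virus comparisons (each CG in capitals). The Sst window lies at chr16:23890845-23891094 on the minus strand, with the element starting 48 bases before the start site. Its Sstr2 counterpart lies at chr11:113619077-113619326 on the plus strand, with the element starting 58 bases before the start site. That of Cck lies at chr9:121495695-121495944 on the minus strand and holds 9 CG dinucleotides, and that of the first Sstr3 start site at chr15:78544346-78544595 on the minus strand holds 6. A match or its absence describes only the letters in these windows.
Sst: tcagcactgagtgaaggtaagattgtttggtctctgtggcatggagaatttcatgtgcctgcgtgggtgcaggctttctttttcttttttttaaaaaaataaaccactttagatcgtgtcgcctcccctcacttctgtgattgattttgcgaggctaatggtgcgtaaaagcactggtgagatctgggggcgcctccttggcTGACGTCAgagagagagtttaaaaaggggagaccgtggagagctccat
Sstr2: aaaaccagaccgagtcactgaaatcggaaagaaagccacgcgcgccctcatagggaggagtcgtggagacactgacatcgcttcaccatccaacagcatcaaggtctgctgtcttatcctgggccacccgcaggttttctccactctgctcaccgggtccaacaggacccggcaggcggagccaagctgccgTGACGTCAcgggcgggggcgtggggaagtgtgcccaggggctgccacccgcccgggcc
Cck: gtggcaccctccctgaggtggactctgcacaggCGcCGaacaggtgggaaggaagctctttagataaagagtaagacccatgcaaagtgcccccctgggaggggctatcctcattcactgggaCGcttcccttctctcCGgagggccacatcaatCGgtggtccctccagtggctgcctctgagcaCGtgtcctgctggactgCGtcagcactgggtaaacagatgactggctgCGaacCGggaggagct
Sstr3: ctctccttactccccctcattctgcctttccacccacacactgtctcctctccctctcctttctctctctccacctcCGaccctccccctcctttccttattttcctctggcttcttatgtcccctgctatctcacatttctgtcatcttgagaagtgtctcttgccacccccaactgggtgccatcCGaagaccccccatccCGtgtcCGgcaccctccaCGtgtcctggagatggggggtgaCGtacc

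The members spanned a wide range of levels. Per kilobase of the longest annotated transcript, Cck was highest at a mean of 551 CPM per kb (range over 16 libraries 478 to 660), followed by Sst at 270 (181 to 320) and Npy at 93.0 (65.7 to 118), and the ranges of these 3 peptides overlapped neither each other nor the next gene. Below them came Cnr1, the CB1 cannabinoid receptor, at 19.5 CPM per kb, Lamp5 at 17.2, the somatostatin receptor gene Sstr4 at 16.2, Elfn1 at 12.9 and Nos1, neuronal nitric oxide synthase, at 12.5. From Cnr1 downward the range of each gene over the 16 libraries overlapped that of the next in order. Such an overlap does not show that neighbours had equal levels, as the means of Gal and Chodl below illustrate. The lowest were Adcyap1 (PACAP) at 0.473, Gal at 0.240 and Chodl at 0.0261 CPM per kb. The least variable members over the 16 libraries were the transcription factors Npas1 (coefficient of variation 7.03%), Lhx6 (7.83%) and Maf (8.26%). The most variable of those tested were the peptides Nts (neurotensin, 42.5%), Cort (cortistatin, 33.4%), Grp (gastrin-releasing peptide, 32.6%) and Adcyap1 (32.2%).

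**Figure D1:**
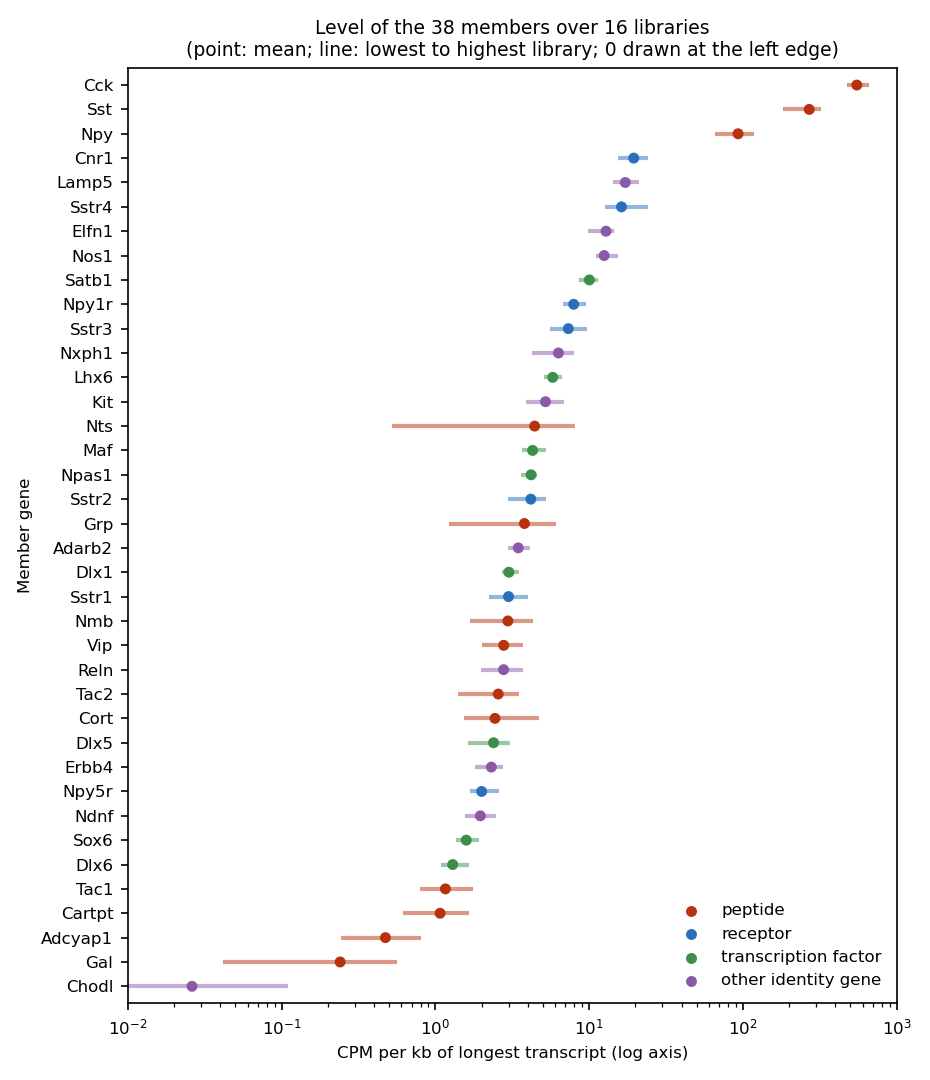
CPM per kilobase of longest transcript (log axis) for each of the 38 members, coloured by role; points are means over 16 libraries and lines run from the lowest to the highest library. Cck (551), Sst (270) and Npy (93.0) lie apart from the rest, and Gal (0.240) and Chodl (0.0261) lie lowest.

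None of the 36 tested members differed between Dnmt3a2 and Control in edgeR's quasi-likelihood test with Benjamini-Hochberg adjustment over all genes at 0.05. This held at 1 day (0.0888% of all genes tested were called), at 5 days (0.32%) and in the average over both days (1.43%). At an unadjusted p under 0.05, 5 members stood out at 1 day (3 higher and 2 lower; 7.17% of all genes), 6 at 5 days (4 higher and 2 lower; 8.01%) and 10 in the average (5 higher and 5 lower; 12.1%). Among the 36 tested members these counts are larger shares than those of all genes. Whether the members differ from all genes in this was not tested. DESeq2, run as an alternative, called no member at 1 day, Sstr3 at 5 days, and Cck and Sstr3 in the average. The 95% intervals of 27 of 36 members at 1 day and 29 at 5 days lay within 1.5-fold in either direction, compared with 12448 and 12383 of the 16899 genes. In the average, 31 of 36 did, against 13786 genes; the other 5 were the peptides Adcyap1, Cort, Nmb, Grp and Nts.

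**Figure D2:**
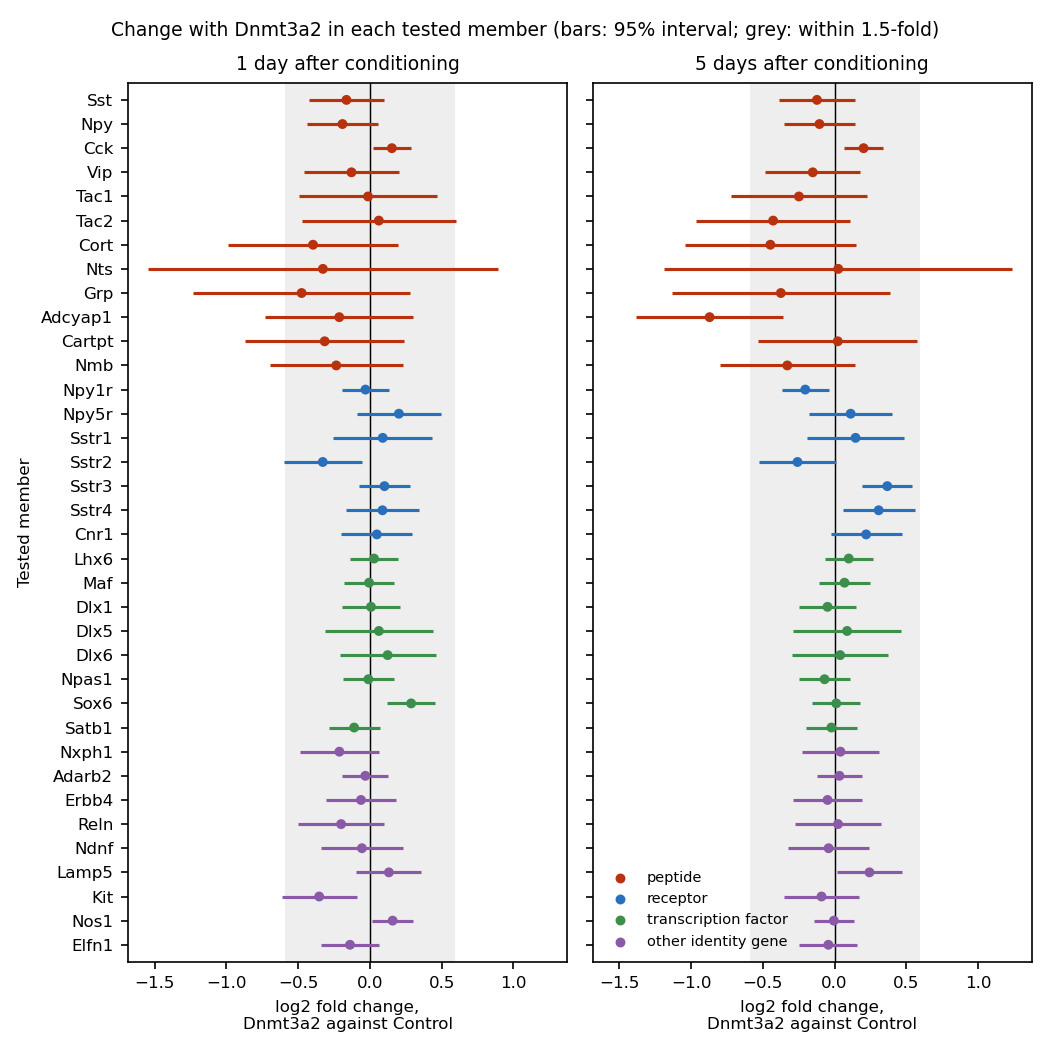
Log2 fold change of Dnmt3a2 against Control for each tested member at 1 day and at 5 days, coloured by role, with 95% intervals from the edgeR fit; the grey band is a change of up to 1.5-fold. Most intervals lie inside the band, and those of the scarce peptides are widest, such as Nts at 1 day (-1.55 to 0.89).

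Among the peptides, 11 of the 12 tested lay below 0 in the average over both days, with a median log2 change of -0.15 (all genes: 52.6% above 0, median 0.0063). At 1 day 10 of 12 lay below 0 (median -0.20) and at 5 days 9 of 12 (median -0.20). None of these was called, and 5 of 12 intervals at each day lay within 1.5-fold. Leaving out the 2 choroid-rich libraries moved the median at 1 day to -0.029, with 8 of 12 below 0, while at 5 days it was -0.15 with 9 of 12 below 0, and in the average -0.085 with 10 of 12 below 0. Leaving out replicate 4 of Dnmt3a2 at 1 day instead moved the averaged median to -0.24. The exception in the average was Cck, the most abundant member.

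Cck encodes cholecystokinin, a peptide of basket interneurons that pyramidal cells also transcribe. The 4 Control libraries at 1 day had 382, 427, 412 and 445 CPM and the 4 Dnmt3a2 libraries 441, 462, 472 and 478 CPM. Only the lowest Dnmt3a2 library, the choroid-rich replicate 1, overlapped the Controls. At 5 days the Control libraries had 382, 387, 457 and 414 CPM and the Dnmt3a2 libraries 527, 438, 460 and 461 CPM. Here the Control library at 457 CPM lay above the lowest Dnmt3a2 library, and the highest Dnmt3a2 library was the choroid-rich replicate 1. The averaged log2 change was 0.18 ± 0.045 (SE), a 1.13-fold difference that just missed the threshold (edgeR adjusted p = 0.0535, unadjusted p = 0.000823). At single days the log2 change was 0.15 (adjusted p = 0.603) and 0.20 (adjusted p = 0.286). Without the 2 choroid-rich libraries it was 0.18 at 1 day and 0.14 at 5 days. Over 23 alternative settings the averaged log2 change was 0.14 to 0.21, its adjusted p ran from 0.0121 to 0.121, and 7 settings called it; without the 2 choroid-rich libraries it was 0.16 (adjusted p = 0.0727).

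Sst, the precursor of somatostatin and the marker of dendrite-targeting interneurons, had 201, 201, 231 and 197 CPM in Control and 131, 184, 197 and 228 CPM in Dnmt3a2 libraries at 1 day. 2 Dnmt3a2 libraries lay below the Controls and 2 within their range, and the lowest was the choroid-rich replicate 1. The log2 change was -0.16 (95% interval -0.43 to 0.10) with that library and -0.029 without the 2 choroid-rich libraries. At 5 days Sst averaged 202 ± 10.5 CPM in Control and 185 ± 17.1 CPM in Dnmt3a2 libraries (log2 change -0.12, interval -0.39 to 0.14). Neuropeptide Y, a peptide that dampens transmitter release, averaged 55.6 ± 6.596 and 48.7 ± 8.14 CPM at 1 day and 55.1 ± 8.44 and 51.2 ± 1.49 CPM at 5 days in Control and Dnmt3a2 libraries. For Npy the log2 change was -0.19 (interval -0.44 to 0.056) at 1 day and -0.11 (-0.35 to 0.14) at 5 days. Without the 2 choroid-rich libraries it was -0.082 at 1 day and -0.12 at 5 days, and without replicate 1 of Control at 5 days it was 0.000307 at 5 days. The groups overlapped at both days for both genes, and both intervals exclude a 1.5-fold change.

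Adcyap1 encodes PACAP, a peptide that raises cyclic AMP in its target cells. At 5 days it was at 2.34, 2.72, 1.62 and 2.15 CPM in Control and 0.826, 1.25, 1.37 and 1.38 CPM in Dnmt3a2 libraries. These groups did not overlap, as was the case for 6.29% of all genes tested. The log2 change was -0.87 ± 0.247 (SE), the largest of any member, and missed the threshold (edgeR adjusted p = 0.190); without the 2 choroid-rich libraries it was -0.73 (adjusted p = 0.209). At 1 day the Control libraries had 1.22, 1.72, 1.99 and 1.53 CPM and the Dnmt3a2 libraries 0.825, 1.42, 1.89 and 1.42 CPM, overlapping widely (log2 change -0.21, or -0.030 without the 2 choroid-rich libraries). The averaged log2 change was -0.54 ± 0.175 (adjusted p = 0.147). With only 24 to 82 counts per library, these values rest on few reads, and no alternative setting called the gene.

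The other peptides were scarce or variable. Vip, a peptide of interneurons that inhibit other interneurons, averaged 6.62 to 7.42 CPM in the 4 groups, with a log2 change of -0.13 at 1 day and -0.15 at 5 days, or -0.026 and -0.045 without the 2 choroid-rich libraries. Cort averaged 1.94 ± 0.862 CPM in Control and 1.47 ± 0.539 in Dnmt3a2 libraries at 1 day, and 1.85 ± 0.187 and 1.36 ± 0.366 at 5 days (averaged log2 change -0.42, adjusted p = 0.411). Grp averaged 4.23 to 5.99 CPM and Nts 4.82 to 6.05 CPM per group, and their intervals at 1 day ran from -1.23 to 0.28 and from -1.55 to 0.89. Without the 2 choroid-rich libraries the change at 1 day went from -0.48 to -0.20 for Grp and from -0.33 to 0.038 for Nts. The tachykinin precursors Tac1 and Tac2 averaged 1.85 to 2.63 CPM per group, and Cartpt, the CART peptide precursor, 1.19 to 1.48 CPM. Nmb, the neuromedin B precursor, averaged 1.73 to 2.40 CPM and shares 163 exon bases on the same strand with Sec11a, which averaged 12.2 CPM, so its level is uncertain. Gal averaged 0.237 ± 0.169 CPM in Control and 0.199 ± 0.0771 in Dnmt3a2 libraries at 1 day, and 0.255 ± 0.120 and 0.0667 ± 0.0478 at 5 days. At 1 to 13 counts per library a difference in Gal was not tested.

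The peptides also differed from library to library. A peptide score, the mean over the 12 tested peptides of log2(CPM + 0.1) relative to each gene's mean, was lowest in the choroid-rich replicates 1 of Dnmt3a2 at 1 day (-0.69) and at 5 days (-0.27). It was highest in replicate 1 of Control at 5 days (0.36) and replicate 3 of Control at 1 day (0.36). In the lowest library Nts stood at 0.653 CPM and Grp at 1.61 CPM, and in replicate 3 of Control at 1 day they stood at 10.1 and 8.003 CPM. In replicate 1 of Dnmt3a2 at 5 days Vip, Nts, Grp, Adcyap1 and Cartpt were the lowest of their group. Cck (527 CPM), Npy (52.6 CPM) and Nmb (2.44 CPM) were the highest of that group there. All 12 choroid plexus markers lay above 0 in the virus comparison at both days (median log2 change 1.71 and 1.84, none called), and their summed level ranged from 44.7 to 215 CPM in Control and 48.8 to 1416 CPM in Dnmt3a2 libraries. The score of 16 tested neocortex and subiculum markers was also lowest in replicate 1 of Dnmt3a2 at 1 day (-0.27), and was -0.14 in replicate 1 of Dnmt3a2 at 5 days. Replicate 4 of Dnmt3a2 at 5 days, which was not choroid-rich, lay lower on this score at -0.22 but had a peptide score of -0.042. The highest marker scores, 0.16 and 0.15, belonged to the Control libraries with the highest peptide scores. The summed level of those markers was 628 to 731 CPM in Control and 617 to 693 CPM in Dnmt3a2 libraries. Of 12 hypothalamus markers only 2 passed the filter, and the hypothalamic peptides Hcrt and Pmch were at 0 to 0.139 and 0 to 0.267 CPM. The part of tissue composition in the peptide values was not tested.

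**Figure D3:**
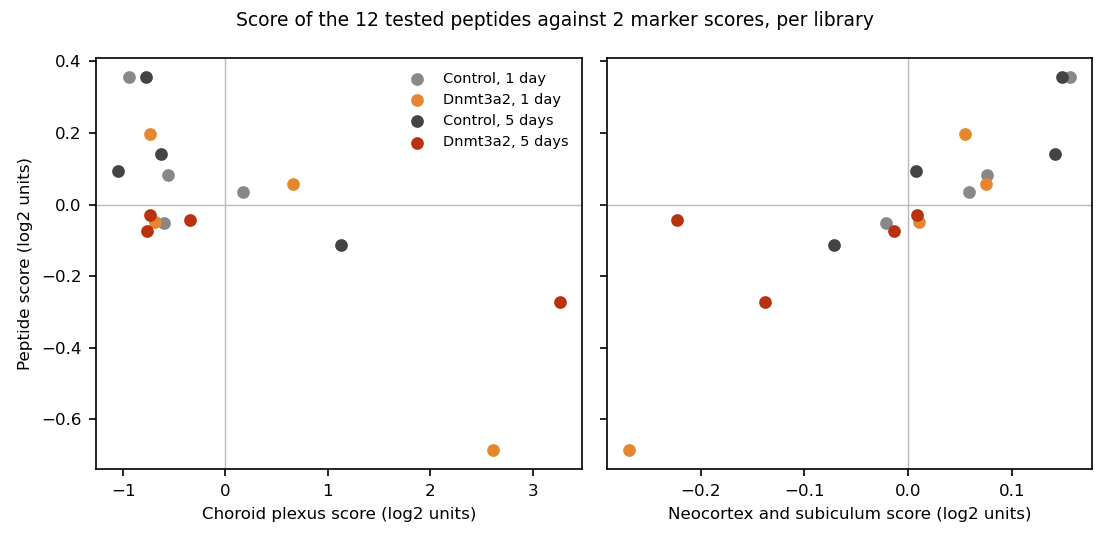
Peptide score of each library (mean over 12 peptides of log2(CPM + 0.1) relative to the gene's mean) against the choroid plexus score and the neocortex and subiculum score, computed alike, with points coloured by group. The choroid-rich replicates 1 of Dnmt3a2 at 1 day (-0.69) and 5 days (-0.27) have the lowest peptide scores.

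**Figure D4:**
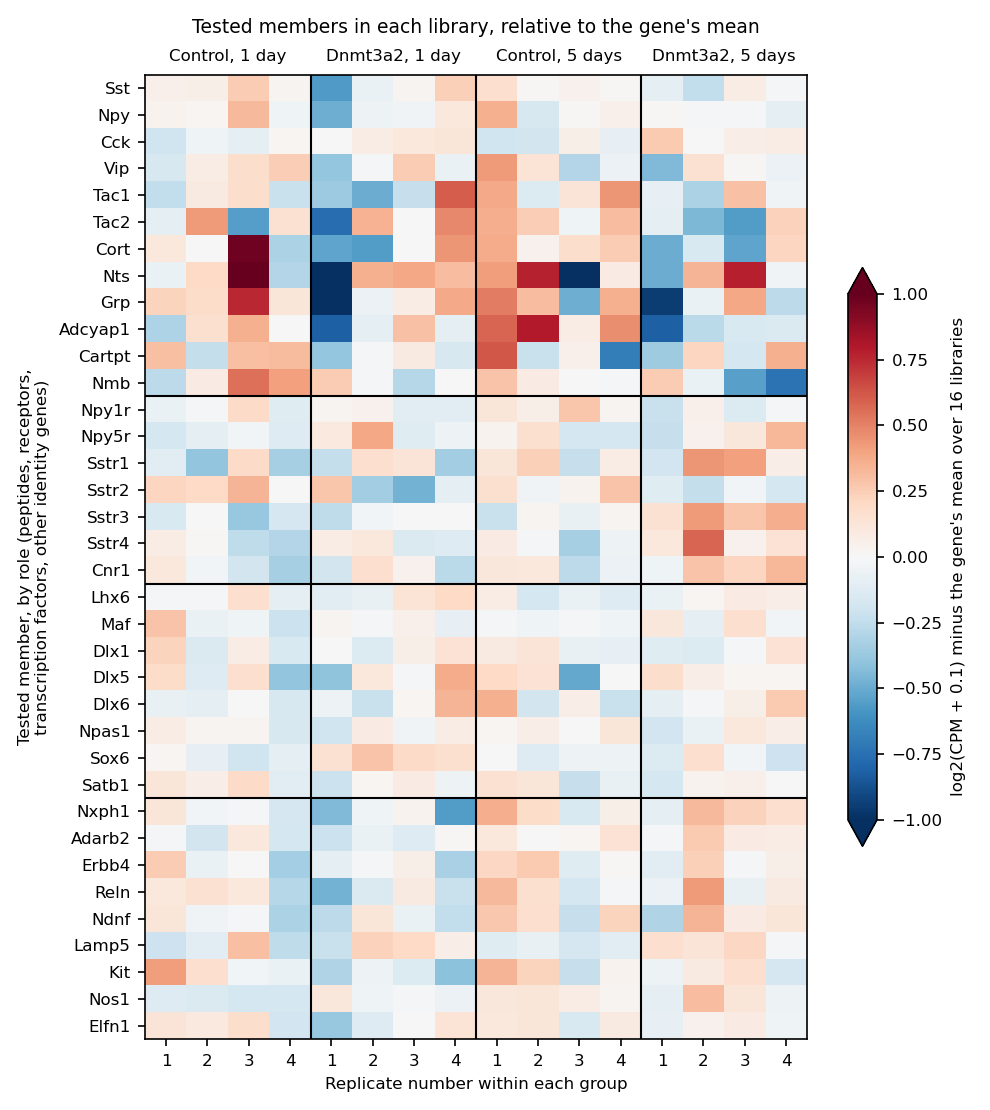
Each tested member (rows, by role) in each of the 16 libraries (columns, by group), as log2(CPM + 0.1) minus the gene's mean; the colour scale ends at 1 in either direction. The peptides vary most, with replicate 1 of Dnmt3a2 at 1 day low (peptide score -0.69) and replicate 3 of Control at 1 day high (0.36), and the transcription factors vary least.

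Of the 7 receptors, 5 lay above 0 at each day and in the average (median log2 change 0.087, 0.15 and 0.13), and none was called. Single libraries moved these medians: leaving out each in turn gave 0.0057 (without replicate 2 of Dnmt3a2) to 0.11 at 1 day. At 5 days the range was 0.065 (without replicate 3 of Control) to 0.26 (without the choroid-rich replicate 1 of Dnmt3a2). In the average, the receptors nearest to the threshold, Sstr3 and Sstr2, were both for somatostatin, and their values lay on opposite sides of Control. At each single day other receptors came between them by p.

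Sstr3 encodes a somatostatin receptor that sits in the primary cilium of neurons. At 5 days the Control libraries had 26.5, 31.6, 29.3 and 31.5 CPM and the Dnmt3a2 libraries 34.4, 41.7, 37.5 and 39.7 CPM. All 4 Dnmt3a2 libraries lay above every Control library. The log2 change was 0.37 ± 0.084 (SE), or 1.29-fold, with an unadjusted p of 0.000302 and an edgeR adjusted p of 0.0639. At 1 day the values were 27.9, 31.0, 23.8 and 27.5 CPM in Control and 25.9, 30.3, 31.0 and 30.9 CPM in Dnmt3a2 libraries. Those groups overlapped (log2 change 0.10). The averaged log2 change was 0.23 ± 0.060 (edgeR adjusted p = 0.0551), and the change at 5 days exceeded that at 1 day by 0.27 ± 0.12 (unadjusted p = 0.0381, adjusted p = 1). Of 24 alternative settings, 9 called Sstr3 at 5 days, with adjusted p from 0.00818 to 0.257, and its log2 change was 0.32 to 0.42 in all of them; without the 2 choroid-rich libraries it was 0.42 (adjusted p = 0.0198).

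Sstr2, the somatostatin receptor whose promoter window carries the element printed above, was at 10.3, 10.2, 11.2 and 8.81 CPM in Control and 10.7, 6.91, 6.34 and 8.25 CPM in Dnmt3a2 libraries at 1 day. The library at 10.7 CPM was the choroid-rich replicate 1, and the other 3 lay below every Control library. At 5 days Control libraries had 9.89, 8.63, 9.08 and 10.8 CPM and Dnmt3a2 libraries 8.12, 7.47, 8.68 and 7.83 CPM. Only 1 Dnmt3a2 library reached the lowest Control library. The log2 change was -0.33 ± 0.130 at 1 day (adjusted p = 0.555), -0.26 ± 0.130 at 5 days (adjusted p = 0.657) and -0.29 ± 0.092 in the average (edgeR adjusted p = 0.131). Without replicate 1 of Dnmt3a2 at 1 day the averaged change was -0.38 and passed the threshold (adjusted p = 0.0139), as it did without both choroid-rich libraries (adjusted p = 0.0182).

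The other receptors showed smaller differences. Sstr4 averaged 21.8 ± 2.58 CPM in Control and 26.9 ± 4.95 CPM in Dnmt3a2 libraries at 5 days (log2 change 0.31, adjusted p = 0.464), where replicate 2 of Dnmt3a2 reached 34.3 CPM; without that library the log2 change was 0.17. Npy1r, a postsynaptic receptor for neuropeptide Y, averaged 25.9 ± 2.08 and 22.5 ± 1.89 CPM at 5 days (log2 change -0.20, adjusted p = 0.455) and 23.7 and 23.2 CPM at 1 day. Cnr1, which mutes GABA release from cholecystokinin basket cells, averaged 111 ± 13.1 and 129 ± 14.3 CPM at 5 days (log2 change 0.22, interval -0.027 to 0.47) and 105 and 108 CPM at 1 day. Npy5r and Sstr1 averaged 4.26 to 4.90 and 5.36 to 6.84 CPM per group, with averaged log2 changes of 0.16 and 0.12.

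The transcription factors were the most even group. Of 8 tested, 5 lay above 0 and 3 below in each virus comparison, with median log2 changes of 0.018 at 1 day, 0.025 at 5 days and 0.048 in the average. All 8 intervals lay within 1.5-fold at both days. Lhx6, which directs the fate of medial cells, averaged 20.3 ± 1.62 and 20.7 ± 2.20 CPM in Control and Dnmt3a2 libraries at 1 day and 19.2 ± 1.46 and 20.5 ± 0.940 CPM at 5 days. Dlx1, Dlx5 and Dlx6, homeobox genes of all forebrain interneurons, averaged 12.1 to 12.5, 3.30 to 3.53 and 2.69 to 2.98 CPM per group. Dlx1 shares 335 exon bases with its antisense gene Dlx1as (1.66 CPM), and the sources used here do not say whether the counting used strand. Satb1, a chromatin organiser of medial interneurons and pyramidal cells, averaged 60.8 to 65.6 CPM, Maf 26.7 to 28.0 CPM and Npas1 11.3 to 11.9 CPM per group.

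Sox6 was the exception. This SRY-box factor positions medial interneurons and is also made by oligodendrocyte precursors. At 1 day it stood at 13.9, 12.9, 11.9 and 12.8 CPM in Control and 15.2, 16.7, 15.7 and 15.3 CPM in Dnmt3a2 libraries. The groups did not overlap, as for 3.43% of all genes tested. Its log2 change of 0.29 ± 0.080 (SE), or 1.22-fold, had the smallest p of any member at 1 day (unadjusted p = 0.00179, edgeR adjusted p = 0.289). At 5 days it was at 13.7, 12.6, 13.2 and 13.2 CPM in Control and 12.5, 15.4, 13.4 and 11.8 CPM in Dnmt3a2 libraries, on both sides of the Controls. The change at 5 days was smaller than that at 1 day by 0.28 ± 0.11 on the log2 scale (unadjusted p = 0.0243, adjusted p = 1). No alternative setting called Sox6.

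The remaining identity genes include surface and secreted proteins and enzymes. Of 9 tested, 2 lay above 0 at 1 day (median log2 change -0.062), 4 at 5 days (median -0.0052) and 3 in the average (median -0.056). Kit, a receptor tyrosine kinase of caudal interneurons, was at 36.0, 30.3, 26.5 and 25.7 CPM in Control and 21.9, 26.1, 24.5 and 20.3 CPM in Dnmt3a2 libraries at 1 day. A single Dnmt3a2 library reached into the Control range. The log2 change was -0.35 ± 0.125 (edgeR adjusted p = 0.461), and at 5 days the groups averaged 29.0 ± 4.83 and 27.3 ± 2.84 CPM.

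Nos1 marks neurogliaform, ivy and projecting interneurons and produces nitric oxide. At 1 day the Control libraries had 116, 114, 112 and 112 CPM and the Dnmt3a2 libraries 136, 123, 125 and 121 CPM, without overlap. The log2 change was 0.16 ± 0.068 (edgeR adjusted p = 0.622). At 5 days the Control libraries had 137, 138, 133 and 129 CPM and the Dnmt3a2 libraries 119, 156, 137 and 122 CPM, on both sides of the Controls. Sox6 and Nos1 were the only members without overlap at 1 day, 2 of 36 against 3.43% of all genes. At 5 days Sstr3, Lamp5 and Adcyap1 were, 3 of 36 against 6.29%. These shares lie near those of all genes.

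Lamp5, a vesicle protein of neurogliaform cells, had 30.6, 31.6, 29.6 and 30.9 CPM in Control and 37.4, 36.4, 38.6 and 32.8 CPM in Dnmt3a2 libraries at 5 days. Every Dnmt3a2 library lay above every Control library, with a log2 change of 0.24 ± 0.108 (edgeR adjusted p = 0.575). At 1 day the groups averaged 32.1 ± 6.06 and 35.2 ± 4.82 CPM, and replicate 3 of Control reached 41.1 CPM. Without that library the averaged change of Lamp5 was 0.26 and passed the threshold (adjusted p = 0.0428), against 0.19 with it (adjusted p = 0.306). Reln, a secreted matrix protein of neurogliaform and Cajal-Retzius cells, averaged 28.5 to 34.6 CPM per group, beside 9.40 to 10.1 CPM of Trp73, a marker of Cajal-Retzius cells. Erbb4, the neuregulin receptor of interneurons, averaged 25.99 to 29.6 CPM, Elfn1, a synaptic adhesion protein of somatostatin cells, 46.5 to 51.1 CPM, and Ndnf, a secreted marker of neurogliaform cells, 18.2 to 21.3 CPM.

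**Figure D5:**
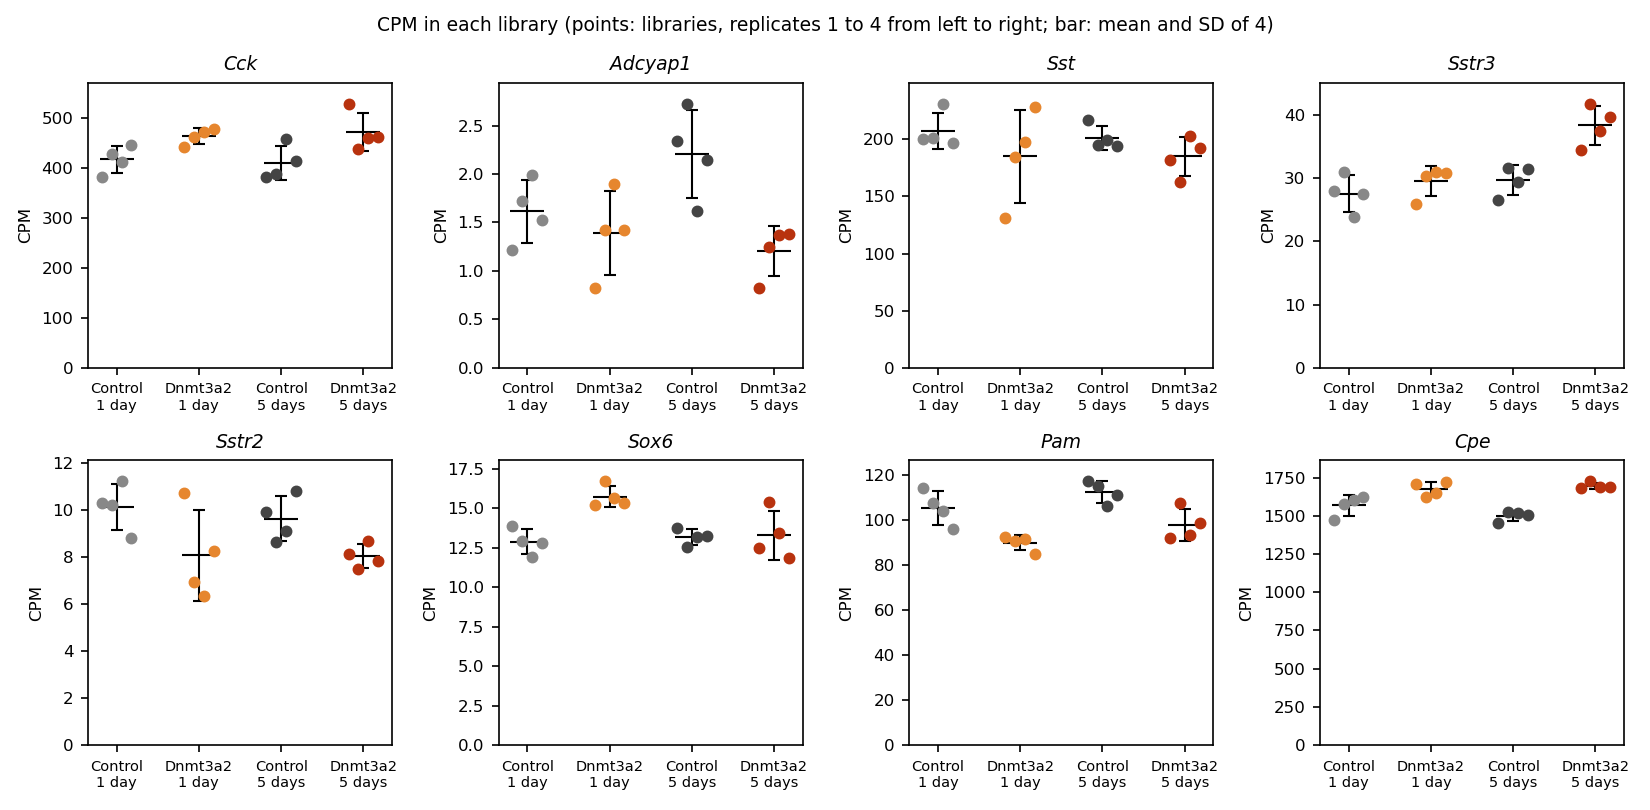
CPM of Cck, Adcyap1, Sst, Sstr3, Sstr2, Sox6 and of the peptide processing genes Pam and Cpe in each library (points), with the mean and SD of 4 libraries per group (bars). Sstr3 at 5 days (34.4 to 41.7 CPM with Dnmt3a2, 26.5 to 31.6 CPM in Control) and Sox6 at 1 day (15.2 to 16.7 and 11.9 to 13.9 CPM) do not overlap between viruses.

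Between 1 day and 5 days after conditioning no member differed in Control (0% of all genes tested were called) or in Dnmt3a2 libraries (0%) in edgeR's test. At an unadjusted p under 0.05, 1 member stood out in Control (3.54% of all genes) and 6 in Dnmt3a2 libraries (5 higher and 1 lower; 10.8%). DESeq2 called no member in Control and Sstr3 in Dnmt3a2 libraries. In Control, Nos1 was the only member whose libraries did not overlap (2.4% of all genes): 112 to 116 CPM at 1 day and 129 to 138 CPM at 5 days, a log2 change of 0.24 ± 0.068 (unadjusted p = 0.00183, edgeR adjusted p = 0.999). Adcyap1 followed at 0.45 ± 0.242 and Adarb2, an RNA-binding protein that marks caudal interneurons, at 0.13 ± 0.076 (adjusted p = 0.999 for both). Adarb2 had 22.9, 20.4, 24.9 and 20.5 CPM in Control at 1 day and 24.9, 23.2, 23.5 and 25.5 CPM at 5 days, with overlap.

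In Dnmt3a2 libraries Sstr3 was the only member without overlap between days (5.17% of all genes): 25.9 to 31.0 CPM at 1 day and 34.4 to 41.7 CPM at 5 days. Its log2 change was 0.38 ± 0.084 (unadjusted p = 0.00024, edgeR adjusted p = 0.187). Sox6 had -0.24 ± 0.080 and Nxph1, a secreted ligand of neurexins made by interneurons, 0.40 ± 0.131 (adjusted p = 0.327 for both). Nxph1 had 12.9, 17.0, 18.01 and 11.9 CPM at 1 day and 16.5, 22.01, 20.6 and 19.7 CPM at 5 days, and the lowest library at 5 days lay within the range at 1 day. All 9 other identity genes lay above 0 in this comparison (all genes: 50.2%), with a median of 0.19, and 6 of 9 did in Control, with a median of 0.12. The medians were 0.086 without replicate 2 of Dnmt3a2 at 5 days and 0.033 without replicate 4 of Control at 1 day, and over all such omissions 0 to 2 and 1 to 4 of the 9 lay below 0. Whether the 2 comparisons differ was not tested for the list. These comparisons share libraries with the virus comparisons, so their values are not independent of those.

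The difference of the Dnmt3a2 effect between days was not called for any member, and 0% of all genes tested were. At an unadjusted p under 0.05 there were 2 members, Sox6 lower and Sstr3 higher, against 2.13% of all genes, and DESeq2 called none. Adcyap1 followed, at -0.66 ± 0.350 on the log2 scale (unadjusted p = 0.0744, adjusted p = 1).

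The enzymes and granule proteins that make peptides were looked at as a companion list of 21 genes, of which 20 were tested. None was called at a single day (at 5 days 16 of 20 lay above 0, median log2 change 0.041; at 1 day 7 of 20, median -0.033), and in the average 1 rose and 1 fell, with a median of -0.00055. Pam, the enzyme that adds the C-terminal amide needed by peptides such as neuropeptide Y and cholecystokinin, fell. It was at 114, 107, 104 and 95.9 CPM in Control and 92.5, 90.7, 91.6 and 84.8 CPM in Dnmt3a2 libraries at 1 day, without overlap. At 5 days the values were 117, 115, 106 and 111 CPM and 92.2, 108, 93.2 and 98.5 CPM, and 1 Dnmt3a2 library reached the Control range. The averaged log2 change of Pam was -0.21 ± 0.042 (SE), or 0.862-fold (edgeR adjusted p = 0.0118). Cpe, the carboxypeptidase that trims peptide ends and is also made by astrocytes, rose. Its values were 1472, 1580, 1604 and 1625 CPM in Control and 1706, 1624, 1649 and 1719 CPM in Dnmt3a2 libraries at 1 day, and 1452, 1523, 1522 and 1504 CPM against 1682, 1726, 1691 and 1692 CPM at 5 days. At 1 day 1 Dnmt3a2 library lay just below the highest Control library, and at 5 days the groups did not overlap. The averaged log2 change of Cpe was 0.14 ± 0.028, or 1.10-fold (edgeR adjusted p = 0.0166), and it was 0.12 (adjusted p = 0.0682) when the 3 libraries richest in interferon response transcripts were left out. Furin, a convertase of the secretory pathway, and Cpe came closest at 5 days, with the same adjusted p (Furin: 44.3 ± 1.81 CPM in Control and 52.4 ± 2.78 CPM in Dnmt3a2 libraries, log2 change 0.24, edgeR adjusted p = 0.0544; Cpe: log2 change 0.18).

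Among 19 activity-induced genes, all tested, 1 rose in the average over both days and none at a single day (9, 11 and 9 above 0 at 1 day, at 5 days and in the average). It was Inhba, which encodes an activin subunit. It had 5.403, 5.999, 5.29 and 5.34 CPM in Control and 8.004, 7.98, 7.51 and 6.69 CPM in Dnmt3a2 libraries at 1 day, without overlap. At 5 days it had 6.65, 4.71, 5.07 and 6.17 CPM and 6.74, 8.33, 5.87 and 6.83 CPM, with overlap. The averaged log2 change of Inhba was 0.38 ± 0.087 (SE), or 1.30-fold (edgeR adjusted p = 0.0346). Without the 2 choroid-rich libraries it was 0.37 (adjusted p = 0.0603), and leaving out any of 11 of the 16 libraries also ended the call. Fosb, an immediate early transcription factor gene, had the smallest p at 5 days (log2 change -0.37, adjusted p = 0.302).

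Of 19 interferon response genes, all tested, 19 lay above 0 at 1 day, 18 at 5 days and 19 in the average (median log2 change 0.40), and none was called; the smallest p belonged to Ifit3b at 1 day (0.62, adjusted p = 0.629), Irf7 at 5 days (1.201, adjusted p = 0.708) and Ifit1 in the average (0.91, adjusted p = 0.208). The lists of interneuron core genes, other peptide receptors and partners held no called gene in the virus comparisons. Of 29 tested core genes of GABAergic neurons, 8 lay above 0 at 1 day (median log2 change -0.089), 15 at 5 days (0.012) and 10 in the average (-0.049). Syt2, a calcium sensor of fast inhibitory terminals, had the smallest p there in the average, with 21.7 ± 3.99 and 15.5 ± 4.55 CPM in Control and Dnmt3a2 libraries at 1 day, 20.02 ± 3.59 and 15.8 ± 2.54 CPM at 5 days, and an averaged log2 change of -0.41 ± 0.154 (edgeR adjusted p = 0.265). The lowest Syt2 libraries of the Dnmt3a2 groups were the choroid-rich replicates 1, at 8.93 CPM at 1 day and 12.7 CPM at 5 days. Calb2 (calretinin) led at 5 days with -0.41 ± 0.148 (edgeR adjusted p = 0.399). Its lowest Dnmt3a2 library at 5 days was the choroid-rich replicate 1, at 4.13 CPM. At 1 day the choroid-rich replicate 1 held the most Calb2 of its group, at 5.98 CPM (others 4.51 to 5.93). Of the 22 receptors for member peptides that are not members, 11 were tested, and 6 lay above 0 at 1 day, 9 at 5 days and 7 in the average (median 0.071). The PACAP receptor gene Adcyap1r1, at 165 to 187 CPM per group, had an averaged log2 change of 0.12 ± 0.042 (adjusted p = 0.170), and Ntsr1 led at 5 days with 0.34 ± 0.157 (adjusted p = 0.614). Of 26 tested partners of the members, such as ligands of Erbb4 and enzymes of the cannabinoid system, 17 lay above 0 in the average (median 0.030). Among them the neurexin gene Nrxn2 was nearest to the threshold in the average, at 0.12 ± 0.034 (adjusted p = 0.0978), and Faah, which degrades a cannabinoid, led at 1 day with -0.13 ± 0.051 (adjusted p = 0.564).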

How the data were processed

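RNA was extracted with an RNeasy kit, 500 ng of total RNA went into each library, and libraries were sequenced by BGISEQ-500 protocols, per the labels' protocols. Of tools, kallisto 0.4.6, Trim Galore 0.6.4 and edgeR 3.17 are listed, with the build GRCm38.p6 and no roles or order, per the submitters' processing notes. The deposited tables used here hold the authors' estimated counts per gene (expected counts, not whole numbers), 28.6 to 30.0 M per library. They were rounded to whole numbers. The deposited CPM tables were not used; the CPM values in the text were computed from the counts on TMM-scaled library sizes.

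Identifiers were named with GENCODE M21 (55144 of 55385). One edgeR 4.0.16 fit (R 4.3.3, limma 3.58.1) held all 16 libraries with a mean per group, 12 residual degrees of freedom, filterByExpr, robust quasi-likelihood and Benjamini-Hochberg adjustment over 16899 genes at 0.05. It gave 6 contrasts: Dnmt3a2 against Control at each day and averaged, the later against the earlier day within Control and within Dnmt3a2, and how far the Dnmt3a2 effect differed between days. The fit was run on simulated data with 200 genes changed at 1 day. The simulation held no differences in tissue composition between libraries, so it cannot speak to those seen here. DESeq2 1.42.0, 2 other filters, other size factors, a fit on only the groups compared, a replicate block, a threshold of 0.10 and leaving out each library were the alternatives. Library scores are means of log2(CPM + 0.1) after subtracting each gene's mean.

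The members and lists were chosen with earlier results of these data known. Library values are given for members called in any contrast and for the 3 with the smallest p in each, at least in the groups of that contrast. Companion genes are named where called and for the smallest p per list and virus contrast. Lamp5 and Sst were detailed after their values were seen. No 2 libraries agreed within counting noise (chi-square per gene 3.40 to 28.3 over 120 pairs). Same-numbered libraries were checked for pairing by the correlation of their deviations.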

Additional observations from a re-analysis of the deposited data

Results flagged for a closer look

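In 8 of 144 combinations of a tested member and a group, 1 library lay far from the other 3 by Dixon's test at the 95% level. Chance alone flags about 1 in 20 such combinations. Sst in replicate 3 of Control at 1 day was at 231 CPM, with the others at 197 to 201 CPM, and the same library held 8.003 CPM of Grp, with the others at 5.10 to 5.50 CPM. Nts in replicate 1 of Dnmt3a2 at 1 day, a choroid-rich library, was at 0.653 CPM, with the others at 6.03 to 6.37 CPM. In the same library Sstr3 was at 25.9 CPM, with the others at 30.3 to 31.0 CPM. Cartpt in replicate 2 of Control at 1 day was at 1.078 CPM, with the others at 1.61 to 1.63 CPM. Sstr4 in replicate 2 of Dnmt3a2 at 5 days was at 34.3 CPM, with the others at 23.6 to 25.3 CPM. Reln in replicate 4 of Control at 1 day was at 26.3 CPM, with the others at 34.5 to 35.6 CPM. Elfn1 in replicate 3 of Control at 5 days was at 44.0 CPM, with the others at 52.1 to 53.4 CPM.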

How the results depend on the processing

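The count of members called, 0 in each of the 6 comparisons, changed in several alternatives, and no gene changed sign in a comparison for which it is named by the rule. At 5 days 1 member, Sstr3, was called with DESeq2, with no filter on low counts, with only the groups compared, with the replicate number as a block and at a threshold of 0.10. In the average over both days 2 members, Cck and Sstr3, were called with DESeq2, without the filter, with a minimum mean of 1 CPM, with the replicate block and at 0.10. From 1 day to 5 days in Dnmt3a2 libraries 1 member, Sstr3, was called with DESeq2 and without the filter. In settings added after seeing the data, without the 2 choroid-rich libraries or without the 3 libraries richest in interferon response transcripts (those 2 and replicate 1 of Control at 1 day), 1 member (Sstr3) was called at 5 days and 2 (Sstr2 and Sstr3) in the average. The cause was not tested. Leaving out each library in turn gave 0 to 1 members at 5 days, 0 to 2 in the average and 0 in the other 4 comparisons. Sstr3 was called at 5 days without replicate 3 of Control at 1 day or without either choroid-rich library, and in the average without replicate 2 of Control at 1 day or without either choroid-rich library. Cck was called in the average without replicate 4 of Control at 1 day, replicate 3 of Control at 5 days or replicate 2 of Dnmt3a2 at 5 days.

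Over all genes tested, 15 were called at 1 day (59 with DESeq2, 34 without the filter, 7 with only the groups compared, 23 at 0.10; 6 to 22 leaving out a library). At 5 days 54 were called (143 with DESeq2, 94 with only the groups compared, 104 at 0.10, 90 without the 2 and 105 without the 3 libraries named above; 22 to 82 leaving out a library, lowest without replicate 4 of Dnmt3a2 at 5 days), and in the average 241 (512 with DESeq2, 442 at 0.10; 121 to 272 leaving out a library, lowest without replicate 4 of Control at 5 days). DESeq2 called 44 genes between days in Dnmt3a2 libraries and 1 for the difference between days, and dropping the filter called 6 in the former. Over the 24 pairs of same-numbered libraries, correlations of their deviations ran from -0.086 to 0.38, with 8 over 0.1. Of 16 libraries, 6 were closest to their own number. These values do not settle whether the numbers mark a pairing or a shared batch, and the main fit held no block. With the block 17, 65 and 295 genes were called in the virus comparisons, against 15, 54 and 241 without it. Inhba lost its call in 11 of 16 omissions of 1 library (adjusted p 0.0254 to 0.0788) and without the 2 or the 3 libraries named above, and Cpe without the 3. For genes with few counts per library, such as Gal, Chodl and Adcyap1, depth limits what can be seen.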
